A study of Mus musculus with 24 samples.

Results

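The 32 genes described here encode lysosomal enzymes, lysosomal membrane proteins, proton pump subunits and regulators of lysosome genes. They were taken by name from a deposited table of 38887 genes: 9 cathepsins with legumain (Lgmn), 10 other hydrolases and saposins, 5 membrane proteins, 4 subunits of the vacuolar ATPase (V-ATPase), and the transcription factors Tfeb, Tfe3 and Mitf. All 32 were among the 14188 genes with enough counts to be tested. The samples were RNA sequencing libraries of mouse dendritic cells grown from bone marrow, from mice labelled knockout (KO) or wild type (WT) for IRE1α, a sensor of protein folding stress in the endoplasmic reticulum. Cells of each genotype were treated with zymosan (a yeast cell wall preparation), treated with lipopolysaccharide (LPS, from the outer membrane of bacteria) or left untreated, in 4 replicates for each of the 6 groups. The labels give neither the driver or cell type of the deletion nor the dose, the duration, the age of the mice or the origin of a replicate, so a p-value measures the spread between these samples, which may be technical.

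The lysosome is the acidic compartment in which cells break down protein, lipid, glycan and material taken up by phagocytosis. Cathepsins and legumain cut proteins there, and in dendritic cells they process antigens and trim the invariant chain of MHC class II. The V-ATPase acidifies the compartment, the membrane glycoproteins shield and traffic it, and TFEB, TFE3 and MITF are related transcription factors that bind short E-box motifs, known as CLEAR or M-box elements, in the promoters of many lysosome genes. IRE1α splices the mRNA of the transcription factor XBP1, whose targets include the secretory pathway that delivers lysosomal enzymes.

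Total counts per sample were 32223256 to 46927434. Levels below are CPM, counts scaled to a common library size with TMM factors, which were 1.14 to 1.19 in untreated samples and 0.880 to 0.983 in stimulated ones. Calls rest on edgeR's quasi-likelihood test, with p-values adjusted over all tested genes (Benjamini-Hochberg) and a threshold of 0.05. Every change is a log2 ratio ± SE with n = 4 samples per group. Ern1, the gene of IRE1α (chr11:106394650-106487852, minus strand), was not lower in the samples labelled KO: it had 48.2 to 54.6 CPM in untreated KO cells and 40.2 to 43.3 CPM in untreated WT cells. The log2 difference was 0.31 ± 0.05, edgeR adjusted p = 6.99e-05, and counts of a whole gene do not show whether an exon is missing. Xbp1 was not called between genotypes in any condition. Replicates 1 and 2, and likewise 3 and 4, mostly resembled each other. Their counts differed by 4.48 times the sampling variance in the median pair of that kind, against 17.3 times in other pairs of the same group. In WT cells with LPS, however, replicates 3 and 4 (8.38 times) were no more alike than 2 and 3 (7.54 times). Results are therefore also given for sums of replicates 1 and 2, and of 3 and 4, with 2 sums per group, where that ends a call. The dendritic cell markers Itgax (CD11c), Cd74 (invariant chain) and H2-Ab1 (MHC class II) averaged 1051 to 1309, 2096 to 2822 and 432 to 771 CPM over the 6 groups, so these markers of the labelled cell type were present in all of them.

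Promoter sequence was available for 27 of the 32 genes, in RefSeq windows of 250 bases before to 50 bases after a start site (build GRCm38.p6, 35 windows, 6 genes with more than 1). The E-box CACGTG was found in 11 of the 27 genes (40.7%), against 8.09% of 27025 genes with such a window, searching both strands. The longer form TCACGTG, which contains that E-box and has the flanking base of CLEAR elements, was found in 10 (37%) against 4.29%. The palindrome TCACGTGA, which contains both, was found in 6 (22.2%) against 1.12%. The M-box TCATGTG was found in 4 (14.8%), Ctsa, Ctss, Gla and Scarb2, against 4.31%. The full CLEAR consensus, the XBP1-type element TGACGTGG, the ER stress element ERSE and an NF-κB consensus were each in 0 of the 27, against 0.37%, 0.714%, 0.137% and 0.174% of all genes with a window. A match describes letters in the window and not a bound site. The 6 genes with the palindrome are shown with Ctsl, which had the E-box without the flanking base, and Gusb, which had none of these motifs, because their mRNAs moved differently with stimulation although several share the same letters. Sequences read 5′ to 3′ on the gene's strand, and capitals mark TCACGTGA, TCATGTG in Gla, or CACGTG in Ctsl. Positions are chr2:164833740-164833772 (plus) for Ctsa, chr7:142387899-142387946 (minus) for Ctsd, chrX:134601173-134601253 (minus) for Gla, chr8:3500453-3500500 (plus) for Mcoln1, chr8:105566061-105566088 (minus) for Atp6v0d1, chr16:44139364-44139411 (minus) for Atp6v1a, chr13:64370731-64370770 (minus) for Ctsl and chr5:130003050-130003109 (minus) for Gusb, whose 60 bases are those just before the start site.
Ctsa: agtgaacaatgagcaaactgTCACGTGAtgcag
Ctsd: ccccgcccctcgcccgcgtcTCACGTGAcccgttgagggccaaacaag
Gla: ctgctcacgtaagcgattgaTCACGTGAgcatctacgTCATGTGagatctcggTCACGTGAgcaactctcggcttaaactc
Mcoln1: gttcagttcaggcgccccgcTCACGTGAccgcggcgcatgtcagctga
Atp6v0d1: agagccaggccctactgcggTCACGTGA
Atp6v1a: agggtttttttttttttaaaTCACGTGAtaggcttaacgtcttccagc
Ctsl: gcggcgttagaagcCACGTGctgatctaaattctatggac
Gusb: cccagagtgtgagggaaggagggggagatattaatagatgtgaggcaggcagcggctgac

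On the scale of CPM per kilobase of transcript, on which levels of different genes can be compared, the 5 highest of the 32 were Psap and 4 cathepsins in every group. In untreated WT cells Psap, the precursor of the saposins that help hydrolases reach lipids, came first at 4051 CPM per kb, followed by Ctsd (cathepsin D, an aspartic protease) at 2055 and Ctss (cathepsin S, the main invariant chain protease of these cells) at 1805 CPM per kb. Ctsz, Ctsb, Cd63, Ctsl, Lamp1 and Ctsc followed at 710.2, 601, 429, 393, 370.5 and 275 CPM per kb. The lowest were Gaa, Tfeb and Smpd1 at 9.75, 9.53 and 5.09 CPM per kb, and of the 31 pairs of neighbours in this order 18 had overlapping sample ranges, among them Ctsd and Ctss, Cd63 and Ctsl, Ctsl and Lamp1, and Gaa and Tfeb. With LPS, Ctss at 2821 CPM per kb came near Psap at 3002 in WT cells, and Ctsl at 927 CPM per kb passed Ctsb at 818.

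Both stimuli raised most cathepsins and lowered most other hydrolases in WT cells, though with total counts as library size 5 of the 10 cathepsins and legumain were higher and 4 lower with either stimulus. Against the same untreated samples, 15 of 32 genes were higher and 10 lower with zymosan, and 16 were higher and 11 lower with LPS. Of all tested genes 70.2% were called with zymosan (34.3% higher, 35.9% lower) and 75.6% with LPS (35.9% higher, 39.7% lower). The share of members called was close to that background, so the counts describe the split by class. The median log2 change of the 32 was 0.09 with zymosan and 0.07 with LPS, beside -0.01 and -0.04 over all tested genes. With total counts as library size in place of TMM, which moves the median of all genes to -0.36 with zymosan and -0.42 with LPS, the split became 9 higher and 20 lower with zymosan and 10 higher and 20 lower with LPS. Marker lists moved with the stimuli too: 10 macrophage genes summed to 3101 to 3226 CPM with zymosan (5 higher, 3 lower), 3076 to 3261 CPM with LPS (7 higher, 2 lower) and 2091 to 2226 CPM untreated in WT cells. The 13 dendritic cell genes summed to 5479 to 5760.0 CPM with zymosan (8 higher, 1 lower), 5782 to 6234 CPM with LPS (8 higher, 2 lower) and 4770.1 to 4928 CPM untreated. The 8 osteoclast genes, none of them a member, summed to 718 to 754 CPM with zymosan (3 higher and 4 lower of 7 tested), 601 to 636 CPM with LPS (2 higher, 4 lower) and 587 to 611 CPM untreated, where Calcr had 0 counts. The 4 plasmacytoid dendritic cell genes summed to 684 to 739 CPM with zymosan (2 of 3 tested higher), 965 to 1086 CPM with LPS (3 of 3 higher) and 145 to 173 CPM untreated, most of it Bst2. The part of these cell types in the changes below was not tested. In bulk RNA, fewer cells of a type and less RNA per cell cannot be told apart.

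**Figure D1:**
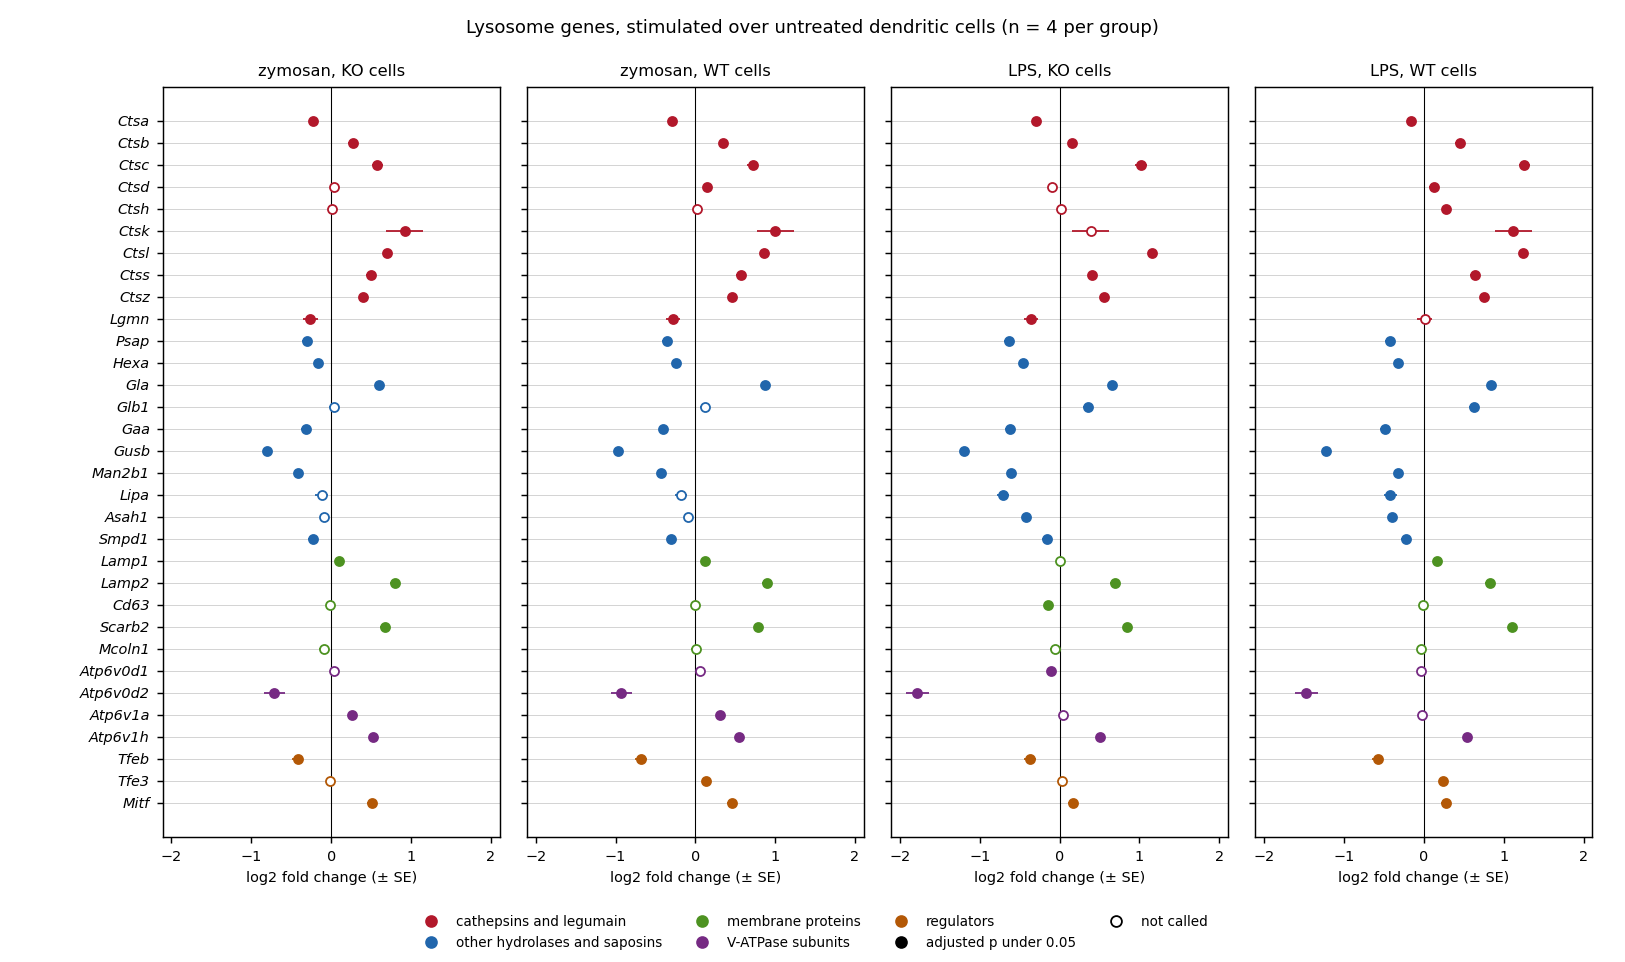
Log2 change with zymosan and with LPS over untreated cells in KO and WT cells for the 32 genes, grouped by class; points are log2 values with SE bars, and filled points have an edgeR adjusted p under 0.05. Cathepsins lie mostly to the right of 0 and other hydrolases mostly to the left in all 4 panels, while Atp6v0d2 and Gusb lie far to the left with LPS; with total counts as library size Ctsd falls to the left of 0 with either stimulus in WT cells and Ctsb does so in KO cells.

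Among the 10 cathepsins and legumain, 7 rose and 2 fell with zymosan in WT cells (median log2 0.41), and 8 rose and 1 fell with LPS (median 0.54), with the scaling limit given above. Ctsl (cathepsin L, chr13:64359337-64370890, minus strand), a cysteine protease, had 1385, 1499, 1340.0 and 1389 CPM in the 4 zymosan samples, 1860.5, 1735, 1854 and 1861 CPM in the LPS samples and 751, 798, 791 and 759 CPM in the untreated samples. It rose 1.81-fold with zymosan (log2 0.86 ± 0.05, edgeR adjusted p = 1.14e-13) and 2.36-fold with LPS (log2 1.24 ± 0.05, edgeR adjusted p = 4e-17). All stimulated samples lay above all untreated samples, and all LPS samples above all zymosan samples. Ctsl shares 2137 exon bases with the predicted genes Gm47123 and Gm49230, and whether the counting used strand is not given in the sources used here. Ctsc (cathepsin C, chr7:88278085-88310888, plus strand), which activates the serine proteases of immune granules, had 1059, 1130.2, 1149 and 1181 CPM with zymosan, 1664, 1546, 1660.2 and 1693 CPM with LPS and 667, 658, 726 and 692 CPM untreated. It rose 1.65-fold with zymosan (log2 0.72 ± 0.07, edgeR adjusted p = 4.83e-10) and 2.39-fold with LPS (log2 1.26 ± 0.07, edgeR adjusted p = 6.19e-15), again with the 3 groups of samples fully apart. Ctsk (cathepsin K, chr3:95499256-95509362, plus strand), best known as the collagen-degrading protease of osteoclasts, had 67.0, 68.9, 102 and 109 CPM with zymosan, 91.4, 90.3, 95.1 and 101 CPM with LPS and 29.5, 32.7, 52.9 and 58.7 CPM untreated. Its rises were of log2 1.00 ± 0.23, edgeR adjusted p = 0.000383 with zymosan and 1.12 ± 0.23, edgeR adjusted p = 9.36e-05 with LPS. Its replicates spread widely, with replicates 3 and 4 above 1 and 2 in the zymosan and untreated groups, but every stimulated sample lay above every untreated one.

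The abundant proteases moved less. Ctss rose with zymosan (log2 0.57 ± 0.06) and LPS (0.64 ± 0.06), Ctsz (cathepsin X, a carboxypeptidase) rose by 0.46 ± 0.04 and 0.75 ± 0.05, and Ctsb (cathepsin B) by 0.35 ± 0.06 and 0.45 ± 0.06, though with total counts Ctsb was at log2 0.00 with zymosan and 0.07 with LPS and was not called with either (edgeR adjusted p = 0.953 and 0.268). Ctsh (cathepsin H, an aminopeptidase) rose with LPS alone among the calls, by log2 0.28 ± 0.05, a direction that turned to -0.10 with total counts. Ctsd was called at log2 0.15 with zymosan and 0.13 with LPS, but its samples overlapped between groups, and with total counts it was at -0.20 and -0.25. Its call also ended with summed pairs (edgeR adjusted p = 0.195 and 0.237), without untreated replicate 1 or 2 or zymosan replicate 3 or 4 for zymosan (0.0728 to 0.145), and without untreated replicate 1 or 2 or any LPS replicate for LPS (0.0511 to 0.204). The genes that fell were Ctsa (protective protein, a carboxypeptidase that stabilises β-galactosidase and neuraminidase) with both stimuli, at log2 -0.29 ± 0.05 with zymosan and -0.16 ± 0.05 with LPS, and Lgmn (legumain, which cuts after asparagine) with zymosan, at -0.28 ± 0.09. The LPS call of Ctsa ended with summed pairs (edgeR adjusted p = 0.0943), as did the zymosan call of Lgmn (edgeR adjusted p = 0.108), which was also lost without untreated replicate 3 or 4 or zymosan replicate 1 (0.0562 to 0.0576). Exons of Ctsa, Ctsb, Ctsd and Ctsz overlap those of neighbouring genes (Neurl2 and Pltp, Fdft1, Gm49369, and Nelfcd).

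Among the 10 other hydrolases and saposins, 1 rose and 6 fell with zymosan (median log2 -0.27), and 2 rose and 8 fell with LPS (median -0.37). Gusb (β-glucuronidase, chr5:129989011-130003049, minus strand), which degrades glycosaminoglycans, had 87.8, 82.5, 91.7 and 91.5 CPM with zymosan, 72.6, 75.7, 70.9 and 75.8 CPM with LPS and 168, 162, 179 and 183 CPM untreated in WT cells. It was 1.96-fold lower with zymosan (log2 -0.97 ± 0.05, edgeR adjusted p = 2.97e-15) and 2.35-fold lower with LPS (log2 -1.23 ± 0.05, edgeR adjusted p = 1.4e-17). All stimulated samples lay below all untreated ones, and the LPS samples below the zymosan samples. Gla (α-galactosidase A, chrX:134588149-134601125, minus strand), the enzyme deficient in Fabry disease, moved the other way. It had 107, 111, 109 and 111 CPM with zymosan, 114, 108, 104 and 103 CPM with LPS and 57.0, 59.4, 61.9 and 61.1 CPM untreated. It rose 1.83-fold with zymosan (log2 0.87 ± 0.04, edgeR adjusted p = 4.85e-15) and 1.79-fold with LPS (log2 0.84 ± 0.04, edgeR adjusted p = 5.28e-15), and its stimulated samples lay above every untreated one while zymosan and LPS samples overlapped. Man2b1 (lysosomal α-mannosidase, chr8:85083270-85098282, plus strand) had 196, 198, 219 and 232 CPM with zymosan, 231, 225, 215 and 233 CPM with LPS and 281, 273, 291 and 294 CPM untreated. It fell, at log2 -0.43 ± 0.05 with zymosan and -0.33 ± 0.05 with LPS. Glb1 (β-galactosidase) had 51.9, 53.0, 58.6 and 58.6 CPM with zymosan, 78.7, 80.3, 77.3 and 81.0 CPM with LPS and 46.1, 45.7, 56.6 and 56.0 CPM untreated. It rose with LPS (log2 0.63 ± 0.06, edgeR adjusted p = 2.33e-10), while its zymosan samples overlapped the untreated ones at log2 0.12 ± 0.06 (edgeR adjusted p = 0.066). With replicate number as a block that value passed (edgeR adjusted p = 0.03), with summed pairs it did not (0.249), and with total counts it turned to -0.23 (0.000658).

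The remaining hydrolases fell or stayed uncalled in WT cells. Psap, at 8367 ± 866 CPM with zymosan, 7976 ± 319 CPM with LPS and 10763 ± 660.0 CPM untreated (mean ± SD, n = 4 each), fell, at log2 -0.36 ± 0.06 and -0.43 ± 0.06. Gaa (acid α-glucosidase, which degrades glycogen) fell, at -0.40 ± 0.06 and -0.49 ± 0.06, Hexa (a subunit of β-hexosaminidase) at -0.24 ± 0.05 and -0.33 ± 0.05, and Smpd1 (acid sphingomyelinase) at -0.30 ± 0.06 and -0.23 ± 0.06, with zymosan and with LPS in that order. Lipa (acid lipase, which frees cholesterol and fatty acids) fell with LPS, at -0.42 ± 0.08, and was at -0.18 ± 0.08 with zymosan (edgeR adjusted p = 0.0527), a value that passed with the replicate block (edgeR adjusted p = 0.000152) and with total counts (4.29e-07) but not with summed pairs (0.251). Asah1 (acid ceramidase) fell with LPS, at -0.40 ± 0.04 and was at -0.09 with zymosan, called with the block (edgeR adjusted p = 0.0205) and with total counts (5.02e-11) but not with summed pairs (0.278).

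Of the 5 membrane proteins, 3 rose and 0 fell with either stimulus in WT cells, with medians of log2 0.12 with zymosan and 0.16 with LPS; with total counts 2 were higher and 3 lower with either. Lamp2 (chrX:38401357-38456454, minus strand), a major coat glycoprotein that also serves chaperone-mediated autophagy, had 1122, 1176, 1096 and 1099.9 CPM with zymosan, 1100.4, 1032, 1088 and 1051 CPM with LPS and 593, 609, 613 and 596 CPM untreated. It rose by log2 0.90 ± 0.06, edgeR adjusted p = 2.28e-13 with zymosan and by 0.83 ± 0.06, edgeR adjusted p = 7.12e-13 with LPS, and no stimulated sample came near the untreated range. Scarb2 (LIMP-2, the receptor that carries β-glucocerebrosidase to lysosomes; chr5:92441314-92506833, minus strand) had 109, 118, 131 and 133 CPM with zymosan, 149, 150.4, 154 and 159 CPM with LPS and 64.5, 66.5, 76.4 and 75.6 CPM untreated. Its rises were log2 0.79 ± 0.06, edgeR adjusted p = 2.89e-11 with zymosan and 1.11 ± 0.06, edgeR adjusted p = 2.14e-14 with LPS, with the 3 groups apart. Lamp1, the other major coat protein, had 825, 880.2, 918 and 958 CPM with zymosan, 928, 902, 896 and 955 CPM with LPS and 786, 808, 851 and 857 CPM untreated. It was called at log2 0.12 ± 0.04 and 0.16 ± 0.04, but turned to -0.23 and -0.22 with total counts and lost its calls with summed pairs (edgeR adjusted p = 0.158 and 0.0698). Its zymosan samples overlapped the untreated ones, and that call ended without untreated replicate 1 or 2 or zymosan replicate 3 or 4 (0.0553 to 0.105). Cd63, a tetraspanin of lysosomes and exosomes, and Mcoln1, the calcium channel TRPML1, were not called with either stimulus.

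The V-ATPase subunits split. Atp6v0d2 (chr4:19876841-19922605, minus strand), the d subunit isoform known from osteoclasts and macrophages, had 90.1, 82.2, 126 and 127 CPM with zymosan, 77.0, 70.4, 73.7 and 70.3 CPM with LPS and 165, 165, 244 and 234 CPM untreated in WT cells. It was 1.90-fold lower with zymosan (log2 -0.93 ± 0.13, edgeR adjusted p = 9.95e-07) and 2.78-fold lower with LPS (log2 -1.47 ± 0.14, edgeR adjusted p = 3.42e-10), and all stimulated samples lay below all untreated ones. Of the 7 osteoclast markers tested, 4 (Ocstamp, Nfatc1, Mmp9 and Itgb3) were lower with either stimulus, all 4 by over 2-fold with LPS, while Acp5 and Calcr were higher with both, and their part in the fall of Atp6v0d2 was not tested. The ubiquitous isoform Atp6v0d1 was not called with either. Atp6v1h, a regulatory subunit of the catalytic sector, had 143, 136, 137 and 139.9 CPM with zymosan, 142, 134, 143 and 133 CPM with LPS and 89.0, 96.1, 98.9 and 94.3 CPM untreated. It rose by log2 0.55 ± 0.05, edgeR adjusted p = 1.02e-10 with zymosan and by 0.54 ± 0.05, edgeR adjusted p = 1.09e-10 with LPS, with both stimulated groups above the untreated one; its exons overlap Rgs20 on the other strand. Atp6v1a, the catalytic subunit, had 379, 349, 364 and 361 CPM with zymosan, 289.5, 289, 291 and 287 CPM with LPS and 286, 286, 307 and 296 CPM untreated. It rose with zymosan by log2 0.31 ± 0.04, edgeR adjusted p = 3.63e-07, turning to -0.04 with total counts. Its LPS samples lay in the untreated range.

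Of the regulators, Tfeb (chr17:47737030-47792419, plus strand) fell while Mitf rose. Tfeb had 14.7, 13.3, 14.2 and 12.7 CPM with zymosan, 15.0, 14.5, 13.8 and 15.1 CPM with LPS and 21.2, 22.9, 22.2 and 21.2 CPM untreated. It was lower, at log2 -0.68 ± 0.07, edgeR adjusted p = 2.91e-09 with zymosan and -0.58 ± 0.07, edgeR adjusted p = 2.82e-08 with LPS. All stimulated samples were below all untreated ones. Mitf had 112, 101, 121 and 118 CPM with zymosan, 101, 102, 104 and 94.4 CPM with LPS and 78.9, 78.4, 88.2 and 84.1 CPM untreated. It was higher by log2 0.46 ± 0.06, edgeR adjusted p = 2.35e-07 with zymosan and 0.28 ± 0.06, edgeR adjusted p = 0.000155 with LPS, while with total counts it was at 0.11 with zymosan, no longer called (edgeR adjusted p = 0.085), and turned to -0.10 with LPS. Tfe3 was at 67.7, 72.0, 69.6 and 75.2 CPM with zymosan, 75.7, 78.0, 74.8 and 78.9 CPM with LPS and 67.3, 62.5, 62.9 and 67.9 CPM untreated. It was called at log2 0.13 and 0.24 but turned to -0.22 and -0.14 with total counts. The zymosan call of Tfe3 ended with summed pairs (edgeR adjusted p = 0.112) and without untreated replicate 2 or 3 or zymosan replicate 2 or 4 (0.053 to 0.101). These are mRNA levels; the activity of these factors depends on where the protein is and was not measured.

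The 6 genes with the palindrome did not move as a group. In WT cells Gla rose, Ctsa fell, Mcoln1 and Atp6v0d1 were not called, Atp6v1a rose with zymosan alone among the calls, and Ctsd had the small changes given above, with the scaling and pair limits stated there. Gusb, which had none of the motifs, and Ctsl, which had the E-box without the flanking base, had the changes given above. With zymosan the rise of Gla was as large as that of Ctsl (log2 0.87 and 0.86). Gusb and Ctsl were shown because of how they moved, so they are no comparison group. The part of the motifs in these changes was not tested.

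Zymosan and LPS were also set against each other in WT cells. With zymosan over LPS, 6 members were higher and 8 lower, where 46.4% of all tested genes were called (24.5% higher, 21.9% lower). The 8 included 6 of the 10 cathepsins and legumain and none of that class was higher. Ctsc was lower, at log2 -0.54 ± 0.07, edgeR adjusted p = 3.12e-07 and Ctsl at -0.38 ± 0.05, edgeR adjusted p = 1.07e-06, and Ctsz, Ctsh, Lgmn and Ctsa were at -0.28, -0.26, -0.30 and -0.13. Glb1 (log2 -0.51 ± 0.06) and Scarb2 (-0.32 ± 0.06) were also lower with zymosan. The V-ATPase genes Atp6v0d2 (log2 0.55 ± 0.13) and Atp6v1a (0.33 ± 0.04) were higher with zymosan. So were Asah1 (0.31 ± 0.04), Gusb (0.26 ± 0.05), Lipa (0.24 ± 0.08) and Mitf (0.17 ± 0.06). With summed pairs 9 of the 14 calls remained; those of Ctsa, Lgmn, Lipa, Atp6v0d2 and Mitf ended (edgeR adjusted p = 0.289, 0.147, 0.184, 0.0597 and 0.167). Leaving out 1 library ended the calls of Ctsa (zymosan 1, 2 or 3, or LPS 1, 3 or 4), Lgmn (zymosan 1 or 2, or LPS 4), Lipa (zymosan 3 or 4) and Mitf (zymosan 3 or 4, or LPS 4).

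The responses were then read in cells labelled KO. With zymosan 13 members were higher and 10 lower (66.8% of all tested genes called, 31.6% higher and 35.2% lower), and with LPS 11 were higher and 14 lower (71.8% called, 34.4% higher and 37.4% lower). The KO and WT responses share no samples. With zymosan, the 13 genes higher in KO were all among the 15 higher in WT cells (100% of the KO list, 86.7% of the WT list), and the 10 lower in KO were the 10 lower in WT cells. With LPS, the 11 higher in KO were all among the 16 higher in WT cells (68.8% of the WT list), and 11 of the 14 lower in KO (78.6%) were the 11 lower in WT cells. This overlap was not computed over all tested genes, so it is not read as particular to these 32. A difference between KO and WT responses was called for 1.82% of all tested genes with zymosan and 10.4% with LPS. Cathepsins and legumain had 6 higher and 2 lower with zymosan (median log2 0.34) and 5 higher and 2 lower with LPS (median 0.27); other hydrolases had 1 higher and 6 lower with zymosan (median -0.20) and 2 higher and 8 lower with LPS (median -0.54). With total counts as library size the cathepsins and legumain had 5 higher and 4 lower with zymosan and 4 higher and 4 lower with LPS in KO cells, and the split of all members was 10 higher and 20 lower with zymosan and 8 higher and 20 lower with LPS.

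Ctsl, Ctsc, Gusb and Atp6v0d2 again had large changes in KO cells, while Ctsk passed the test with zymosan only. Ctsl had 1316, 1328, 1402 and 1301 CPM with zymosan, 1673, 1717, 1991 and 1967 CPM with LPS and 822, 838, 814 and 810.4 CPM untreated in KO cells. It rose by log2 0.70 ± 0.05, edgeR adjusted p = 7.74e-12 with zymosan and 1.16 ± 0.05, edgeR adjusted p = 2.04e-16 with LPS. Ctsc had 832, 829, 979.5 and 920.2 CPM with zymosan, 1075, 1089.9, 1319 and 1359 CPM with LPS and 595, 600.3, 593 and 601 CPM untreated. It rose by 0.58 ± 0.07, edgeR adjusted p = 3.26e-08 and 1.02 ± 0.07, edgeR adjusted p = 5.49e-13. For both genes the 3 groups of KO samples did not overlap. Ctsk had 43.2, 41.6, 76.5 and 72.7 CPM with zymosan, 36.5, 38.1, 41.1 and 45.4 CPM with LPS and 22.5, 22.5, 38.7 and 39.5 CPM untreated. It rose with zymosan (log2 0.92 ± 0.23, edgeR adjusted p = 0.00114) but was not called with LPS (log2 0.39 ± 0.23, edgeR adjusted p = 0.14), where the KO samples overlapped untreated ones. Ctsz (log2 0.40 with zymosan and 0.55 with LPS) and Ctss (0.50 and 0.41) also rose, and Ctsa (-0.23 and -0.29) and Lgmn (-0.26 and -0.36) fell. Ctsb was called at 0.27 and 0.16, turning to -0.03 and -0.12 with total counts.

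Gusb had 95.6, 92.9, 86.6 and 97.8 CPM with zymosan, 73.0, 72.0, 68.7 and 68.7 CPM with LPS and 160.0, 155, 159 and 174 CPM untreated in KO cells. It was lower, at log2 -0.80 ± 0.05, edgeR adjusted p = 2.01e-13 and -1.20 ± 0.05, edgeR adjusted p = 3.35e-17. Lipa had 388, 399, 463 and 457 CPM with zymosan, 258, 264, 303 and 304 CPM with LPS and 417, 421, 490.3 and 526 CPM untreated. It fell with LPS, at log2 -0.71 ± 0.08, edgeR adjusted p = 2.43e-08. With zymosan it was at -0.12 ± 0.08 (edgeR adjusted p = 0.201), called with the replicate block (0.00689) and with total counts (1.25e-05) but not with summed pairs (0.442). The zymosan value of Asah1 in KO cells likewise passed with the block (edgeR adjusted p = 0.0199) and with total counts (5.25e-10) but not with summed pairs (0.258). Gla rose by log2 0.60 ± 0.04 with zymosan and 0.65 ± 0.04 with LPS, Glb1 by 0.35 ± 0.06 with LPS (with total counts 0.07, edgeR adjusted p = 0.235), and Man2b1 fell, at -0.41 ± 0.05 and -0.61 ± 0.05. The larger falls with LPS also included Psap (-0.64 ± 0.06) and Gaa (-0.62 ± 0.06). All KO samples with LPS lay below every untreated KO sample for Psap, Gaa, Lipa, Man2b1 and Gusb. Among membrane proteins Lamp2 rose by 0.80 ± 0.06 and 0.69 ± 0.06 and Scarb2 by 0.67 ± 0.06 and 0.85 ± 0.06.

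Atp6v0d2 had the largest change of the 32 genes in KO cells. It had 126, 131, 159 and 164 CPM with zymosan, 67.4, 63.8, 72.3 and 73.2 CPM with LPS and 212, 223, 256 and 259.8 CPM untreated. It was 3.43-fold lower with LPS (log2 -1.78 ± 0.14, edgeR adjusted p = 1.29e-11) and lower, at -0.71 ± 0.13, edgeR adjusted p = 4.01e-05 with zymosan. With zymosan over LPS it was 2.09-fold higher (log2 1.07 ± 0.14, edgeR adjusted p = 6.61e-07), with no overlap between those samples. In that comparison 12 members were higher and 5 lower in KO cells, where 42.7% of all tested genes were called (22.7% higher, 20.0% lower), and 7 of the 10 other hydrolases were higher against 0 of the 10 cathepsins and legumain. Lipa (log2 0.59), Gusb (0.40), Psap (0.34) and Mitf (0.34) were higher with zymosan, and Ctsl (-0.46), Ctsc (-0.44) and Glb1 (-0.32) lower. The zymosan over LPS calls of Ctsz, Man2b1, Cd63, Scarb2 and Atp6v0d1 ended with summed pairs (edgeR adjusted p = 0.167, 0.0747, 0.283, 0.195 and 0.109), and those of Cd63 (KO zymosan 3 or 4, or KO LPS 1 or 2) and Scarb2 (KO zymosan 1 or 2, or KO LPS 3 or 4) also without 1 library. Tfeb had 18.6, 19.4, 17.0 and 19.9 CPM with zymosan, 20.4, 20.3, 18.4 and 18.7 CPM with LPS and 28.3, 26.6, 22.0 and 23.6 CPM untreated. It fell, at log2 -0.42 ± 0.07 and -0.37 ± 0.07. Mitf rose by 0.51 ± 0.06 with zymosan and was called at 0.17 ± 0.06 with LPS, turning to -0.11 with total counts. Several small KO calls ended with summed pairs: with zymosan Lgmn, Hexa and Lamp1 (edgeR adjusted p = 0.136, 0.0889 and 0.27), and with LPS Ctsb, Smpd1, Cd63, Atp6v0d1 and Mitf (0.18, 0.0975, 0.122, 0.144 and 0.115). Leaving out 1 library ended the zymosan calls of Lgmn (KO zymosan 2) and Lamp1 (any library but KO zymosan 4), and the LPS calls of Ctsb (KO untreated 1 or 2, or KO LPS 3 or 4), Smpd1 (KO untreated 2 or 3) and Mitf (KO untreated 1 or 2, or KO LPS 4).

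Genotypes were compared within each condition, and more members were called where more of all tested genes were. KO over WT, 2 members were higher and 0 lower in untreated cells (9.95% of all tested genes called, 4.31% higher and 5.64% lower). The untreated count depended on the setting, at 0 members with summed pairs, 4 with DESeq2 and 9 (7 higher, 2 lower) with the replicate block. The count over all genes moved too, from 1411 to 418 with summed pairs and to 1841 with the replicate block. With zymosan 7 were higher and 2 lower (22.1% called, 10.6% higher and 11.4% lower), and with LPS 2 were higher and 10 lower (33.9% called, 15.6% higher and 18.2% lower). In all, 18 members were called in at least 1 condition and 0 in all 3, and 14 in none, among them Ctsb, Ctsl, Ctss, Gusb, Lamp1, Lamp2 and Mitf. These counts over the 3 conditions were not computed for all tested genes, so they are not read as particular to these 32. With LPS, 5 of the 10 cathepsins and legumain were lower in KO cells (median log2 -0.15) and 3 of the 10 other hydrolases (median -0.06), beside a median of 0.01 over all tested genes. Cell type markers moved with genotype: 8 eosinophil genes summed to 48.9 to 58.6 CPM in untreated KO cells and 820.3 to 1101 CPM in untreated WT cells. With zymosan the sums were 48.0 to 61.9 CPM in KO and 923 to 1251 CPM in WT cells, and with LPS 47.4 to 56.4 CPM in KO and 981 to 1049.9 CPM in WT cells. Of the 7 tested, 6 were lower in KO cells untreated, 6 with zymosan and 7 with LPS. Epx (eosinophil peroxidase) averaged 0.755 CPM in untreated KO cells and 187 CPM in untreated WT cells. With LPS, 9 of 10 macrophage genes were lower and 1 higher in KO cells, summing to 2158 to 2277 CPM in KO and 3076 to 3261 CPM in WT cells. With zymosan 5 were lower and 1 higher, with 2414 to 2720.4 CPM in KO and 3101 to 3226 CPM in WT cells. The 13 dendritic cell genes summed to 5417 to 5777 CPM in KO and 4770 to 4928 CPM in WT cells untreated (5 higher, 1 lower in KO). With zymosan these summed to 6111 to 6643 CPM in KO and 5479 to 5760 CPM in WT cells (6 higher, 4 lower), and with LPS the sums overlapped. The 4 plasmacytoid dendritic cell genes summed lower in KO, at 558 to 623 against 684 to 739 CPM with zymosan and 741 to 766 against 965 to 1086 CPM with LPS. Of the 3 tested, 1 was higher and 1 lower in KO with zymosan, and 0 were higher and 1 lower with LPS. With LPS the 10 neutrophil genes summed to 1954 to 2217 CPM in KO and 1760 to 1909 CPM in WT cells (4 higher, 4 lower). The osteoclast sums with LPS were 581 to 599 CPM in KO and 601 to 636 CPM in WT cells. The single genes did not follow that sum: of the 7 tested, 2 were higher and 0 lower in KO (median log2 0.23). The part of these cell types in the genotype differences below was not tested.

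**Figure D2:**
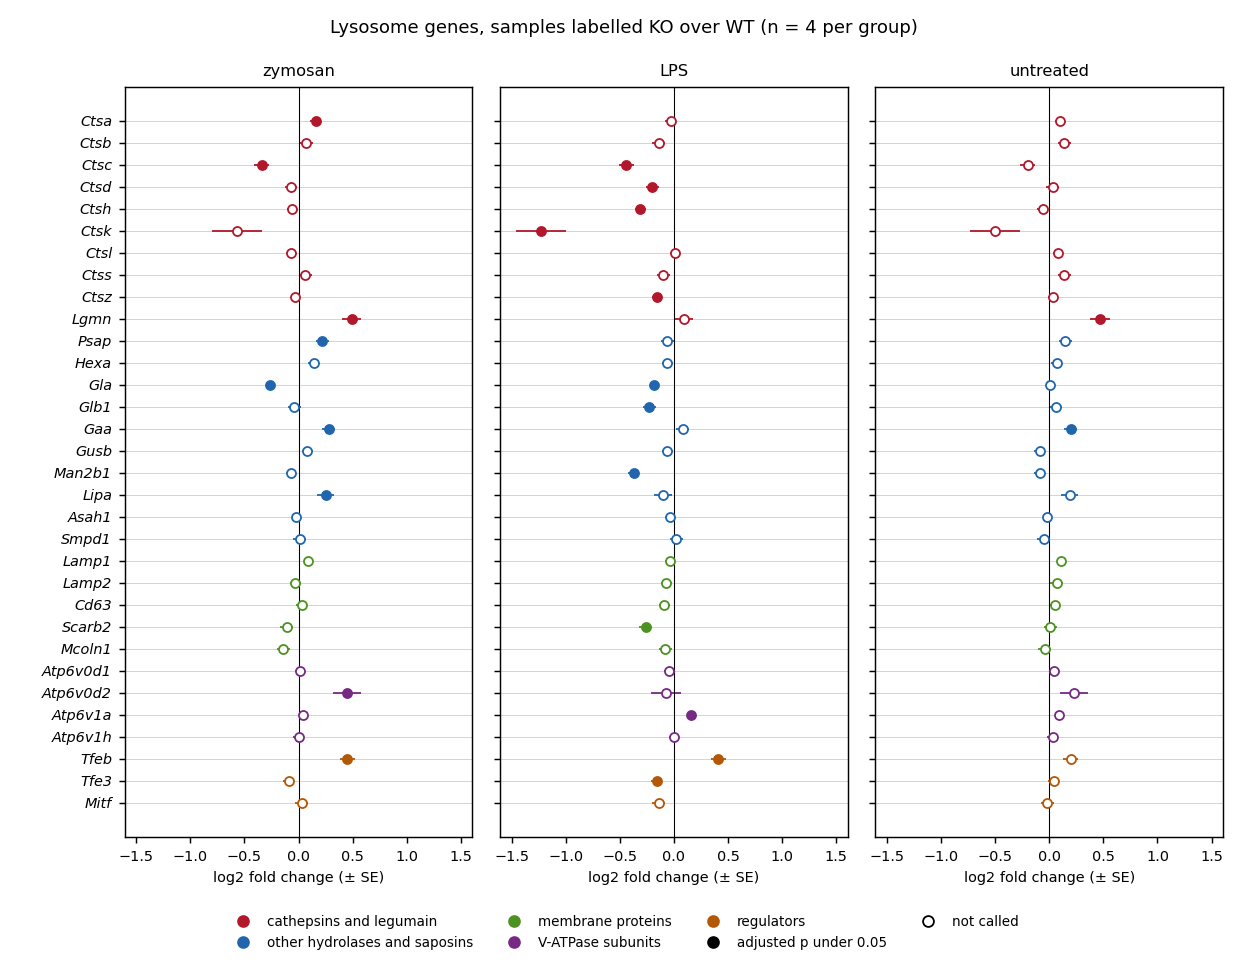
Log2 difference of KO over WT for the 32 genes with zymosan, with LPS and in untreated cells; points are log2 values with SE bars, and filled points have an edgeR adjusted p under 0.05. Most untreated points lie near 0, and with LPS the 5 called cathepsins lie to the left of 0 with Ctsk farthest, while Tfeb lies to the right; with total counts as library size 6 members in place of 10 are called lower with LPS.

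Lgmn and Gaa were the members called between untreated KO and WT cells. Lgmn (chr12:102394084-102439813, minus strand) had 288, 296, 278 and 301 CPM in untreated KO cells and 179, 183, 239 and 240.2 CPM in untreated WT cells. It was higher in KO by log2 0.47 ± 0.09, edgeR adjusted p = 0.00118. With zymosan it had 236, 229.8, 253 and 255 CPM in KO and 146, 156, 187 and 203 CPM in WT cells. It was higher in KO by 0.49 ± 0.09, edgeR adjusted p = 0.000424. In both conditions every KO sample lay above every WT sample. With LPS the ranges overlapped, at 213 to 244 CPM in KO and 196 to 234 CPM in WT cells. Gaa (chr11:119267887-119285454, plus strand) had 40.4, 41.9, 38.4 and 42.4 CPM in untreated KO and 36.2, 33.0, 35.3 and 37.2 CPM in untreated WT cells. With zymosan it had 33.1, 33.1, 30.1 and 34.4 CPM in KO and 25.8, 25.5, 27.8 and 28.5 CPM in WT cells. It was higher in KO by log2 0.28 ± 0.06, edgeR adjusted p = 0.00124 with zymosan and 0.20 ± 0.06, edgeR adjusted p = 0.0228 untreated. Its KO samples lay above its WT samples in both conditions. The untreated calls ended with summed pairs (edgeR adjusted p = 0.13 for Lgmn and 0.249 for Gaa), and that of Gaa without WT replicate 2 or 3 or KO replicate 2 or 4 (0.051 to 0.0972).

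With zymosan, Tfeb, Gaa and Gla kept their genotype calls with summed pairs. Tfeb was at 18.7 ± 1.26 CPM in KO and 13.7 ± 0.904 CPM in WT cells (mean ± SD, n = 4 each), higher in KO by log2 0.45 ± 0.07, edgeR adjusted p = 3.2e-05, with no overlap. Gla was lower, at 91.4 ± 6.42 CPM in KO and 109 ± 1.77 CPM in WT cells, with log2 -0.26 ± 0.04, edgeR adjusted p = 9.6e-05, with every KO sample below every WT sample. Ctsc was at 890.2 ± 73.0 CPM in KO and 1129.9 ± 52.0 CPM in WT cells, lower, at -0.34 ± 0.07, edgeR adjusted p = 0.000408, also without overlap. Psap (0.22 ± 0.06), Atp6v0d2 (0.45 ± 0.13), Lipa (0.25 ± 0.08) and Ctsa (0.16 ± 0.05) were higher in KO cells. The zymosan calls of Ctsc, Lgmn, Psap, Lipa, Atp6v0d2 and Ctsa ended with summed pairs (edgeR adjusted p = 0.0668, 0.0621, 0.212, 0.306, 0.23 and 0.318). Leaving out 1 library ended those of Ctsa (WT 1 or 2, or KO 1, 2 or 4), Lipa (WT 1 or 2, or KO 3 or 4) and Atp6v0d2 (WT 1 or 2, or KO 4).

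With LPS, Ctsk had the largest genotype difference of the 32 genes. It was at 40.3 ± 3.92 CPM in KO and 94.4 ± 4.80 CPM in WT cells, 2.35-fold lower in KO (log2 -1.23 ± 0.23, edgeR adjusted p = 0.000192), and every KO sample lay below every WT sample. With zymosan it was at 58.5 ± 18.7 CPM in KO and 86.8 ± 21.9 CPM in WT cells (log2 -0.57 ± 0.23, edgeR adjusted p = 0.0708). In untreated cells it was at 30.8 ± 9.60 CPM in KO and 43.5 ± 14.5 CPM in WT cells (-0.50 ± 0.23, edgeR adjusted p = 0.212). Samples overlapped in both conditions, with no call in the main fit. Each KO sample there lay below the WT sample of its own replicate number. With the replicate block both differences were called (edgeR adjusted p = 0.000578 with zymosan and 0.00629 untreated). With summed pairs they were not (edgeR adjusted p = 0.375 and 0.719), so the lack of a call outside LPS depended on the setting. Ctsc was at 1211 ± 149 CPM in KO and 1641 ± 65.1 CPM in WT cells with LPS, lower, at log2 -0.44 ± 0.07, edgeR adjusted p = 1.49e-05, without overlap. Ctsh (chr9:90054152-90076089, plus strand) had 310.3, 318, 340.0 and 339 CPM in KO and 406, 394, 402 and 416 CPM in WT cells with LPS. It was lower in KO, at -0.31 ± 0.05, edgeR adjusted p = 0.000106, again without overlap. Man2b1 had 172, 176, 180.2 and 173 CPM in KO and 231, 225, 215 and 233 CPM in WT cells, lower, at -0.37 ± 0.05, edgeR adjusted p = 1.94e-06. The groups of Man2b1 did not overlap either. Tfeb was at 19.4 ± 1.05 CPM in KO and 14.6 ± 0.583 CPM in WT cells, higher in KO by 0.41 ± 0.07, edgeR adjusted p = 5.75e-05, with every KO sample above every WT sample. These 5 LPS calls held with summed pairs.

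The other LPS calls were smaller. Glb1 had 66.0, 69.9, 67.5 and 67.5 CPM in KO and 78.7, 80.3, 77.3 and 81.0 CPM in WT cells with LPS (log2 -0.23 ± 0.06). Gla had 95.2, 92.9, 95.3 and 96.5 CPM in KO and 114, 108, 104 and 103 CPM in WT cells with LPS (log2 -0.18 ± 0.04). Scarb2 had 120.4, 127, 134 and 132 CPM in KO and 149, 150.4, 154 and 159 CPM in WT cells with LPS (log2 -0.26 ± 0.06). Each of these 3 genes was lower in KO cells with no overlap. Ctsd (-0.20 ± 0.06), Ctsz (-0.16 ± 0.04) and Tfe3 (-0.16 ± 0.05) were lower in KO and Atp6v1a higher (0.16 ± 0.04). All 7 calls ended with summed pairs (edgeR adjusted p = 0.111 for Glb1, 0.12 for Gla, 0.0927 for Scarb2, 0.203 for Ctsd, 0.162 for Ctsz, 0.131 for Tfe3 and 0.158 for Atp6v1a), and that of Ctsd also without WT LPS replicate 4 (edgeR adjusted p = 0.0534).

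**Figure D3:**
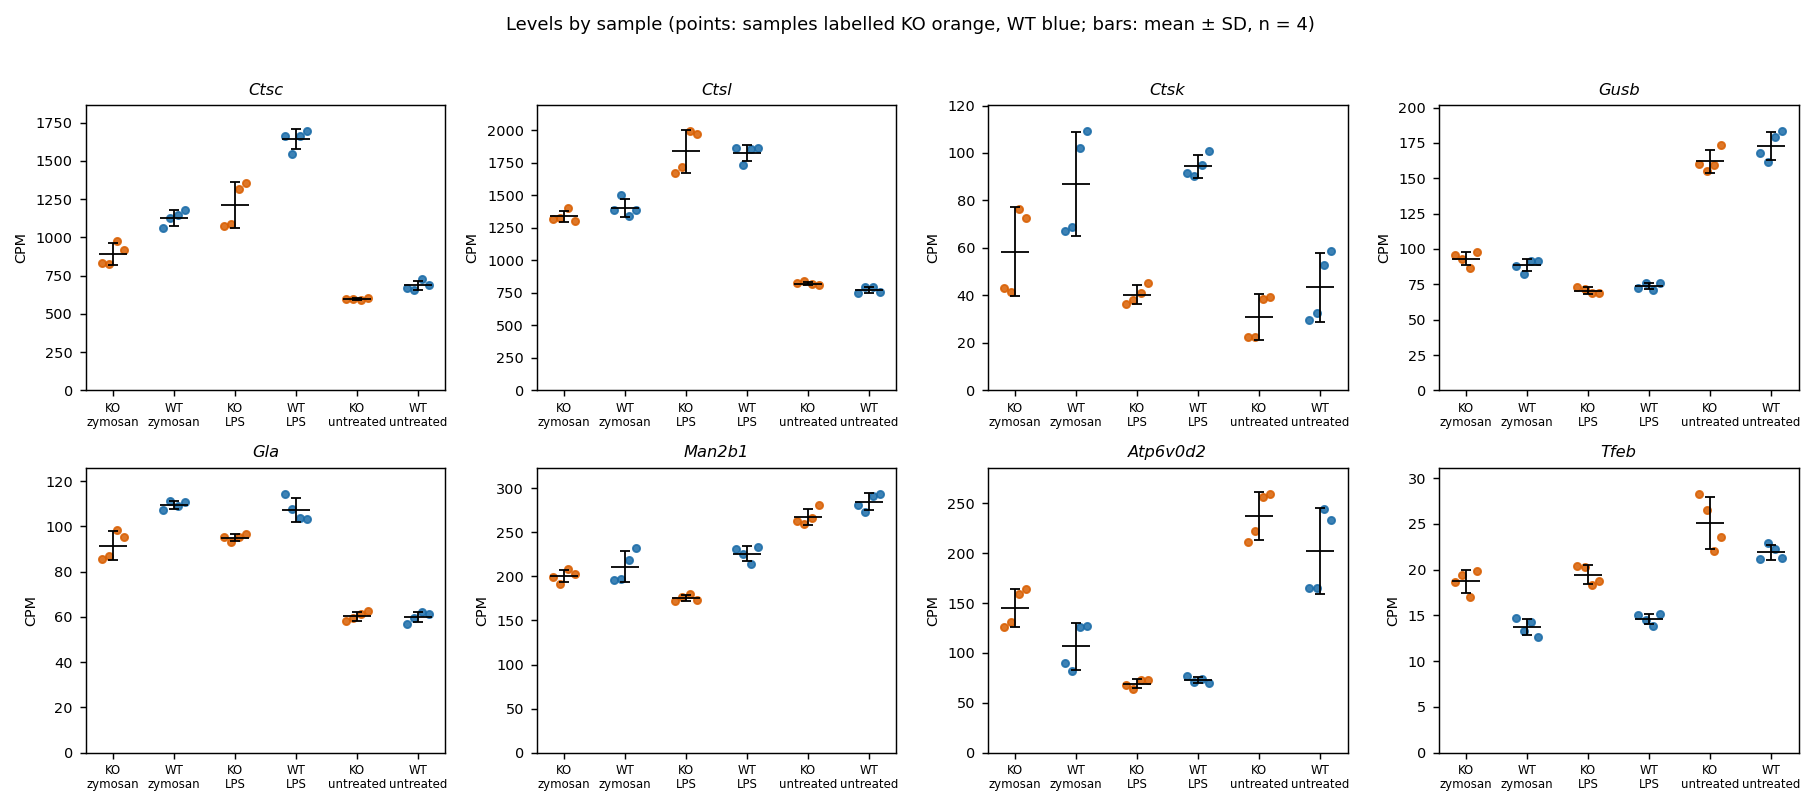
CPM in each sample of the 6 groups for Ctsc, Ctsl, Ctsk, Gusb, Gla, Man2b1, Atp6v0d2 and Tfeb, with the mean and SD of 4 samples as a bar; groups run from KO zymosan on the left to WT untreated on the right. The Ctsk samples of KO cells with LPS lie between 36.5 and 45.4 CPM, below all WT samples with LPS, whereas Gusb is low in every stimulated group of either genotype.

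Whether the response itself depended on genotype was tested as an interaction, KO response minus WT response. For zymosan 1 member was called, lower (1.82% of all tested genes called, 0.973% higher and 0.846% lower). It was Gla, whose rise was smaller in KO cells, with a difference of log2 -0.27 ± 0.06, edgeR adjusted p = 0.0216, and this call ended without WT untreated replicate 1 or KO zymosan replicate 1 or 2 (0.0507 to 0.0677). For LPS 5 members were called, all lower (10.4% called, 4.61% higher and 5.84% lower), with a median over the 32 of -0.17 beside 0 over all tested genes. Man2b1 fell more in KO cells (log2 -0.27 ± 0.07, edgeR adjusted p = 0.00929), and Glb1 (-0.28 ± 0.08, edgeR adjusted p = 0.0252), Ctsb (-0.28 ± 0.09, edgeR adjusted p = 0.0399) and Ctsz (-0.20 ± 0.06, edgeR adjusted p = 0.0494) rose less. Ctsh, with 325, 322, 322 and 317 CPM in untreated KO and 297, 319.6, 361 and 359 CPM in untreated WT cells, rose with LPS in WT cells and was at 0.02 in KO cells, a difference of -0.25 ± 0.08, edgeR adjusted p = 0.0361. Ctsb had 3377, 3443, 3615 and 3646 CPM with LPS and 3046, 3072, 3119 and 3350.0 CPM untreated in KO cells, and 3983, 3747, 3777 and 4012 CPM with LPS and 2576, 2644, 3089.6 and 3089 CPM untreated in WT cells. Ctsz had 1551, 1565, 1517 and 1506 CPM with LPS and 1032, 1024, 1015 and 1121 CPM untreated in KO cells, and 1762, 1699.5, 1649 and 1754 CPM with LPS and 957, 974, 1073 and 1089 CPM untreated in WT cells. In both genotypes the LPS samples of these 2 genes lay above the untreated ones. Ctsk was at -0.73 ± 0.32 and was not called (edgeR adjusted p = 0.155). With the replicate block it was called (edgeR adjusted p = 0.0033), and with summed pairs it was not (0.584). A difference in its LPS response between genotypes therefore depended on the setting and was not shown.

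The interaction calls of the main fit depended on the setting and on single libraries. With summed pairs all 6 ended (edgeR adjusted p = 0.788 for Gla and 0.316 to 0.471 for the 5 LPS genes), and with total counts as library size 0 members were lower and 2 higher for LPS. Leaving out a single library ended the calls of Ctsz in 13, Ctsh in 10, Ctsb in 8 and Glb1 in 4 of 16 cases, and that of Man2b1 in none.

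Summed over each class, cathepsins and legumain reached 16408 to 17688 CPM in KO and 16143 to 18372 CPM in WT cells with zymosan, 16256 to 17688 CPM in KO and 18395 to 19624 CPM in WT cells with LPS, and 13827 to 14726 CPM in KO and 12136 to 14509 CPM in WT cells untreated. On this TMM scale all stimulated samples were above the untreated ones of their genotype, and with LPS all KO samples were below all WT samples. As a share of all counts without TMM the class took 1.56 to 1.63% in KO and 1.5 to 1.66% in WT cells with zymosan, 1.60 to 1.64% in KO and 1.68 to 1.74% in WT cells with LPS, and 1.60 to 1.68% in KO and 1.44 to 1.69% in WT cells untreated, so the stimulated and untreated ranges then overlapped while KO stayed below WT with LPS. The other hydrolases, of which Psap is the largest part, summed to 11001 to 11318 CPM in KO and 8672 to 10739 CPM in WT cells with zymosan, 8717 to 8819.8 CPM in KO and 8790.4 to 9499 CPM in WT cells with LPS, and 12871 to 13922 CPM in KO and 11653 to 13209 CPM in WT cells untreated. Here the stimulated samples were below the untreated ones of their genotype, also as a share of all counts. Counted against all reads without TMM, the 32 genes together took 2.94 to 3.04% of counts in KO and 2.62 to 2.97% in WT cells with zymosan, 2.77 to 2.79% in KO and 2.77 to 2.92% in WT cells with LPS, and 3.49 to 3.64% in KO and 3.15 to 3.57% in WT cells untreated.

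**Figure D4:**
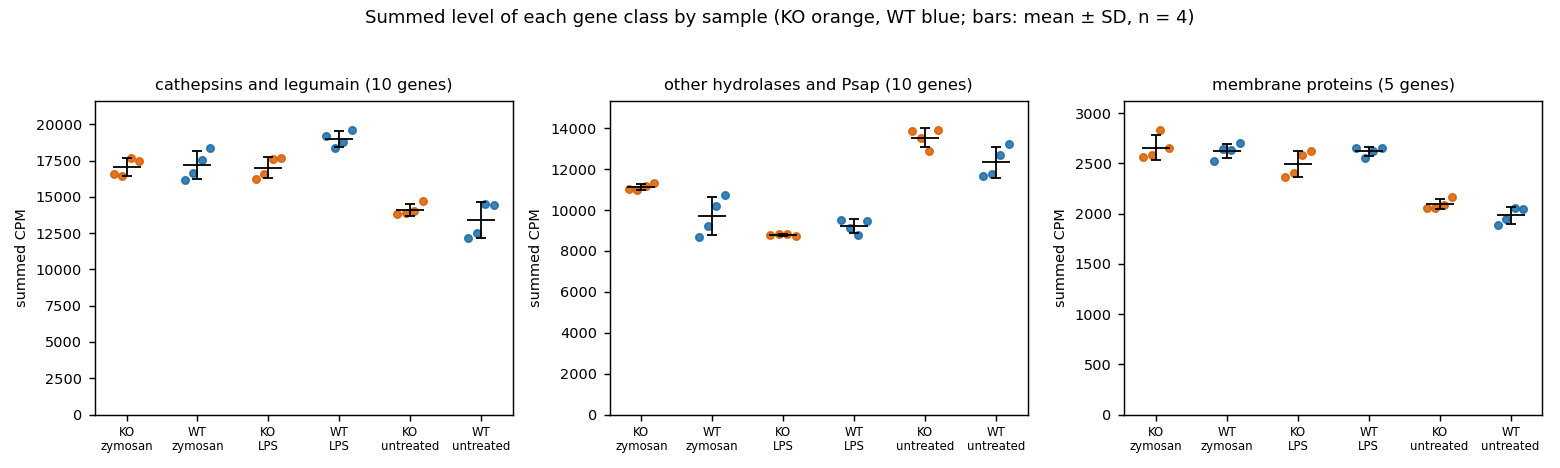
Summed CPM of cathepsins and legumain, of other hydrolases with Psap and of membrane proteins in each of the 24 samples, with the mean and SD of 4 samples per group. Cathepsin sums of stimulated samples lie above, and other hydrolase sums below, those of untreated samples of the same genotype on this TMM scale; without TMM the cathepsin ranges of stimulated and untreated samples overlap.

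A wider set of 101 other lysosome genes, 99 of them tested, was read in the main fit alone, without the alternative settings used for the members. With total counts as library size the median of all tested genes moves to -0.36 with zymosan and -0.42 with LPS in WT cells. The changes and splits with the stimuli below are therefore given on the TMM scale, and whether each holds with total counts was not tested. With zymosan 39 were higher and 36 lower in WT cells (median log2 -0.01), and with LPS 41 were higher and 43 lower (median -0.09). Beside these counts and those of the classes below stand the shares of all tested genes in WT cells. These were 34.3% higher and 35.9% lower with zymosan, and 35.9% higher and 39.7% lower with LPS. The 30 other hydrolases had 8 higher and 12 lower with zymosan and 10 higher and 16 lower with LPS. Npc2, a cholesterol carrier of the lysosome lumen, rose by log2 1.22 ± 0.06 and 1.48 ± 0.06, to 1470.2 ± 49.0 CPM with zymosan and 1765 ± 51.6 CPM with LPS, against 633 ± 54.9 CPM untreated. Sgsh (sulfamidase, a heparan sulphate enzyme) fell, at -1.97 ± 0.11 and -1.87 ± 0.11, and Manba (β-mannosidase) at -1.46 ± 0.06 and -1.97 ± 0.06. The 7 cathepsin inhibitors had 5 higher and 0 lower with zymosan and 3 higher and 1 lower with LPS. Among them Cst7 (cystatin F, an inhibitor of cathepsin C in immune cells) rose by log2 2.08 ± 0.07, edgeR adjusted p = 4.14e-19 with zymosan and 2.61 ± 0.07, edgeR adjusted p = 2.15e-21 with LPS, to 40.9 ± 3.70 CPM and 59.2 ± 2.41 CPM, against 9.69 ± 0.617 CPM untreated, and Cst3 (cystatin C) rose by 0.62 and 0.81.

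Other V-ATPase subunits had 8 of 14 higher and 3 lower with either stimulus in WT cells, led by Atp6v1e1 (log2 0.96 with zymosan and 1.25 with LPS) and Atp6v1d (0.89 and 1.08), while Atp6v0a1 fell (-0.42 and -0.62). The 17 other membrane proteins had 8 higher and 7 lower with zymosan and 10 higher and 6 lower with LPS. Clcn7, the lysosomal chloride-proton exchanger, rose by 1.24 and 1.60, and the ion channel gene Tpcn1 fell, at -1.67 and -2.31. Of the 6 sorting genes 2 were higher and 3 lower with either stimulus: Gnptab, which makes the mannose phosphate tag of lysosomal enzymes, rose by 0.56 and 0.86, and M6pr, the small receptor of that tag, by 0.44 and 0.52. The large receptor Igf2r fell, at -0.94 and -1.69 and the sorting receptor Sort1 at -0.94 and -1.46. The 16 genes of nutrient sensing at the lysosome had 5 higher and 7 lower with zymosan and 4 higher and 11 lower with LPS. The 9 autophagy genes had 3 higher and 4 lower with zymosan and 4 higher and 3 lower with LPS. The autophagy receptor Sqstm1 (p62) rose by 1.29 and 1.35, and Lamtor4, a subunit of the Ragulator complex that anchors mTORC1, fell, at -0.98 and -1.34.

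Between genotypes, 12 of these 99 genes were higher and 5 lower in untreated KO cells, 17 higher and 7 lower with zymosan, and 18 higher and 25 lower with LPS. Of all tested genes 4.31% were higher and 5.64% lower untreated, 10.6% and 11.4% with zymosan, and 15.6% and 18.2% with LPS. Arsb (arylsulfatase B) was lower in KO cells in all 3 conditions, at log2 -0.77 ± 0.06, edgeR adjusted p = 7.76e-10 with zymosan, -0.98 ± 0.06, edgeR adjusted p = 8.74e-12 with LPS and -0.97 ± 0.06, edgeR adjusted p = 9.5e-12 untreated, at 17.7 ± 0.684 CPM in KO and 30.2 ± 2.36 CPM in WT cells with zymosan. The stefin Stfa1, a cytosolic cathepsin inhibitor, was higher in KO cells by 1.36 ± 0.15, 1.94 ± 0.15 and 1.48 ± 0.15 in the same order, but the stefin A genes are near copies whose reads RSEM shares out, so which copy differed is uncertain. Cd68, a macrophage sialomucin, was lower, at -0.22, -0.75 and -0.22, and Tpcn1 was higher by 0.85, 1.09 and 0.43. Gm2a, the GM2 activator, was higher by 0.41, 0.33 and 0.34.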

How the data were processed

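RNA was isolated with a small-scale column kit and made into mRNA libraries, per the labels' protocols. The authors deposited 1 whole-number count per gene and sample; the submitters' processing notes name Bowtie2, RSEM 1.2.31, DESeq2 and build mm10, without roles or order. RSEM shares out reads that fit several genes, so counts of near copies are less certain. GENCODE M21 (GRCm38) named 37570 of 38887 gene identifiers (96.6%). Genes were filtered with filterByExpr, scaled by TMM and fitted in 1 edgeR quasi-likelihood model of the 6 groups over 24 samples (edgeR 4.0.16, limma 3.58.1, R 4.3.3; common biological coefficient of variation 0.0686), with 11 contrasts and Benjamini-Hochberg adjustment over the 14188 genes tested in each. CPM per kb divides CPM by the principal transcript's length. The deposited counts were already whole, so the planned rounding was not needed. The procedure was tested on simulated data.

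The 32 genes and all lists were chosen with earlier results of these data known. Values by sample are given for called members with the largest change, up to 3 per class and comparison, and for members of called interactions; from other lists, up to 2 called genes per direction were eligible, and not all are printed. Alternatives were DESeq2 1.42.0, its size factors, no filter, only the groups compared, a replicate block, summed replicate pairs (chosen because earlier results were known), each library left out, and total counts as library size, which was chosen after seeing the data. Replicate numbers are given by the labels without saying what they share; samples of the same number deviated together in all 4 pairs (correlations over 0.1) for zymosan over untreated, at 0.15 to 0.25 in WT and 0.13 to 0.21 in KO cells, so the blocked value stands beside those results where it changes a call. In the other comparisons they did not do so in all 4 pairs. For KO over WT, each KO sample still correlated best with a WT sample of its own pair, 1 and 2 or 3 and 4. The blocked value is therefore also given for Ctsk, and the other calls that the block added are counted below.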

Additional observations from a re-analysis of the deposited data

Results flagged for a closer look

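In 192 sets of 4 samples (32 genes in 6 groups), 5 had 1 sample far from the other 3 by Dixon's criterion, which chance alone passes in about 1 of 20 sets. Ctsd had 5102 CPM in WT LPS replicate 4, with the others at 4685 to 4718 CPM, and 4722 CPM in KO untreated replicate 4, with the others at 4374 to 4390.2 CPM. Ctsl had 1735 CPM in WT LPS replicate 2, below the others at 1854 to 1861 CPM. Ctsz had 1121 CPM in KO untreated replicate 4, above the others at 1015 to 1032 CPM. Smpd1 had 10.8 CPM in KO LPS replicate 1, above the others at 10.5 CPM.

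The interaction test of responses, KO minus WT, passed for 6 genes, and all 6 calls ended with summed pairs (edgeR adjusted p = 0.316 to 0.788) and the 5 LPS calls also with total counts as library size (0.0642 to 0.328). It was log2 -0.27 for Gla with zymosan. With LPS it was -0.28 for Ctsb, -0.25 for Ctsh, -0.20 for Ctsz, -0.28 for Glb1 and -0.27 for Man2b1.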

How the results depend on the processing

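Of 160 calls of a member in a comparison, 46 ended with replicates 1 and 2, and 3 and 4, summed, 12 without a filter on low counts, 6 with only the groups compared, 2 with DESeq2 and 2 with its size factors, all with their direction kept. With summed pairs the counts of members were 9 (3 higher) for zymosan over LPS in WT and 3 lower for zymosan over LPS in KO. They were 0 (0 higher) for KO over WT untreated, 3 (2 higher, 1 lower) with zymosan, 5 (1 higher, 4 lower) with LPS, and 0 for both interactions (0 lower). Counts over all genes were then 4259 for zymosan over LPS in WT, 3551 in KO, 418, 964 and 1987 for KO over WT untreated, with zymosan and with LPS, and 0 and 5 for the zymosan and LPS interactions, against 6587, 6059, 1411, 3134, 4805, 258 and 1482. With sums of pairs, fewer residual degrees of freedom remain. The fit of these sums also had no term for the pair, so a difference between pairs that the groups share stayed in its spread.

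With total counts as library size 14 calls ended and 15 turned. Counts became 9 higher and 20 lower for zymosan in WT, 10 higher and 20 lower for LPS in WT, 20 lower for zymosan in KO, 1 higher and 1 lower for KO over WT untreated, 6 lower with LPS, and 2 (2 higher, 0 lower) for the LPS interaction. The 15 calls that turned took the log2 values, with zymosan in WT, Ctsb 0.00 (just below 0 before rounding), Ctsd -0.20, Lamp1 -0.23, Atp6v1a -0.04 and Tfe3 -0.22; with LPS in WT, Ctsd -0.25, Ctsh -0.10, Lamp1 -0.22, Tfe3 -0.14 and Mitf -0.10; with zymosan in KO, Ctsb -0.03, Lamp1 -0.20 and Atp6v1a -0.05; and with LPS in KO, Ctsb -0.12 and Mitf -0.11. Glb1, which was no call with zymosan in WT, turned to -0.23.

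For KO over WT untreated, DESeq2 gave 4 members (1 lower) and the fit of only the groups compared 1 lower. For the LPS interaction DESeq2 gave 11 members (11 lower) and no filter 2 (2 lower), and for zymosan the fit of only the groups compared gave 0 (0 lower) and 154 of all genes, against 424 with DESeq2. The replicate block ended 0 calls and added 33. It gave 9 members (7 higher, 2 lower) for KO over WT untreated with 1841 of all genes, and 5 lower with zymosan. It gave 14 (14 lower) for the LPS interaction with 2396 of all genes, and 506 of all genes for the zymosan interaction. It changed no other member count by over 1.5 times. Ctsk for KO over WT then passed untreated (edgeR adjusted p = 0.00629) and with zymosan (0.000578), which it did not with summed pairs (0.719 and 0.375). Outside zymosan over untreated, no comparison had correlations over 0.1 in all 4 pairs of the same number. For KO over WT they were 0.02 to 0.13 untreated, 0.03 to 0.12 with zymosan and 0.02 to 0.07 with LPS. Each KO sample there correlated best with a WT sample of its own pair, 1 and 2 or 3 and 4. Whether these pairs share an origin across genotypes was not tested.

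Leaving out each library gave 1 to 3 members (1 to 3 higher) for KO over WT untreated, 4 to 8 higher with zymosan, 0 to 1 (0 to 1 lower) with 125 to 350 of all genes for the zymosan interaction, and 1 to 10 (1 to 10 lower) for the LPS interaction. The cause was not tested for any of these shifts. Counting error alone gives a coefficient of variation of 0.13 to 5.26%, and the spread between the 4 replicates was larger in 186 of 192 sets of gene and group; the other 6 were of Smpd1, Tfeb, Mcoln1, Gla and Atp6v1a.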
